A study of Mus musculus with 29 samples.

Results

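The mouse genes Ache and Bche encode the cholinesterases, and both were followed through 29 Affymetrix expression arrays of mouse brain. All probe sets whose platform annotation gives Ache or Bche as their single gene symbol were taken. This gave 3 of 22626 probe sets, 1 for Ache (1422635_at) and 2 for Bche (1421218_at and 1437863_at), and 2 of the 12393 genes that a single-symbol probe set names. Total RNA came from the prefrontal cortex (PFC, 18 arrays) and the caudate-putamen (CPu, 11 arrays). The mice were TgS, which express the human AChE-S variant, TgR, which express human AChE-R, and FVB/N, the parent strain and the background of both transgenic lines. They were sampled 4 days after MPTP, a compound whose metabolite is toxic to dopamine neurons (4 injections of 20 mg/kg at 2 h intervals, 80 mg/kg in all), or as naive mice. Region, treatment and strain make 12 groups. Naive PFC is held by 4 arrays per strain, TgR CPu after MPTP by a single array (1), and the remaining groups by 2. The labels do not name the promoter of either transgene, the age and sex of the mice, how many mice stand behind an array, or whether the naive mice received saline. The arrays are labelled as separate samples with no animal named, so the p-values measure the spread between arrays.

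Acetylcholinesterase ends cholinergic transmission by splitting acetylcholine in the synaptic cleft. Alternative splicing of its transcript gives the synaptic variant AChE-S, which is anchored to membranes or the basal lamina through partner proteins, and the soluble read-through variant AChE-R. Butyrylcholinesterase, the product of Bche, splits acetylcholine and other choline esters and is known in brain mainly from glia and some neurons. The caudate-putamen is among the brain regions with the densest acetylcholinesterase staining, much of it in its cholinergic interneurons, while the cortex receives its cholinergic fibres chiefly from the basal forebrain. The platform annotation assigns the Ache probe set to the mouse gene. Whether RNA of the human transgenes binds to it was not tested.

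The upstream sequences of both genes are shown to place them in the genome, and no array value bears on them. Each is the first 229 bases of the RefSeq promoter window in GRCm38.p6, on the strand of the gene, from 250 to 22 bases before the transcript start that the promoter table uses. Measured from the outermost RefSeq start of the gene, the printed bases lie 243 to 15 bases before it for Ache and 229 to 1 bases before it for Bche. The length was set so that no printed base lies in a transcript. The arrays measured RNA and no promoter activity. Capitals mark the GC box GGGCGG or its reverse complement CCGCCC, which were searched on both strands with overlaps allowed.
Ache, chr5:137288004-137288232, plus strand: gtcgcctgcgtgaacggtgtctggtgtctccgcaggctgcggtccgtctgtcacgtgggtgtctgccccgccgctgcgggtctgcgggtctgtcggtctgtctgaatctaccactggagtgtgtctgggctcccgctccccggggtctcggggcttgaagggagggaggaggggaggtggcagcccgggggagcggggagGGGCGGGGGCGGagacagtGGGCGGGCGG
Bche, chr3:73708437-73708665, minus strand: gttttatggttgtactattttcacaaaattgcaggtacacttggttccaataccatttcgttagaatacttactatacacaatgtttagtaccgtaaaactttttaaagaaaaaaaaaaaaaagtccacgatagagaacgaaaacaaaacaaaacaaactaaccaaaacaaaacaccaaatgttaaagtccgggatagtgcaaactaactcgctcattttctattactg
The Ache window has a GC content of 72.1%, and 93.5% of 32851 RefSeq promoter windows of the same length have a lower one. It holds 21 CpG dinucleotides and 4 GC boxes, all as GGGCGG, of which the last pair overlaps. A GC box occurs in 29.7% of all windows and at least 4 in 3.04%. The Bche window is AT-rich, with a GC content of 31.0% (2.10% of windows lie lower), 6 CpG dinucleotides and no GC box in the printed bases. Over the full window of 300 bases, Bche has 2 GC boxes, both as CCGCCC, and Ache has 4, where 35.7% of all full windows hold at least 1. The median window has a GC content of 52.0% and 5 CpG dinucleotides.

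The deposited values are log2 signals made by the authors with RMA, and the 29 arrays had medians between 7.61 and 7.78. All differences below are on this log2 scale, with standard errors from a limma model of the 12 group means. The adjusted p is Benjamini-Hochberg over the 22626 probe sets, and a comparison is called at an adjusted p under 0.05. Naive PFC replicates 1 and 2 of all 3 strains, 6 arrays, stood apart from the other 23. In these 6, Xist, expressed from the inactive X chromosome, read 8.62 to 10.61, against 6.78 to 7.24 in the others. The Y-linked gene Eif2s3y read 3.42 to 3.83 in the 6 and 8.41 to 9.20 in the others. By these transcripts the 6 arrays read as female and the other 23 as male, while the labels name no sex. The 5′ minus 3′ difference of the actin control, a measure of RNA quality, was -2.30 to -0.79 in the 6, against -0.92 to -0.72 in naive PFC replicates 3 and 4. The source label of replicates 3 and 4 is spelled differently, and the model carries a term for them. With this term, naive PFC averages against CPu or MPTP rest on replicates 1 and 2. In the main fit they therefore set arrays that read as female against arrays that read as male. There sex cannot be told apart from region or treatment, so results of this kind are given with and without the 6 arrays. One naive FVB/N CPu array, replicate 2, has a description that calls it MPTP-exposed while its title, source and treatment labels call it naive.

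Ache was among the more variable transcripts. Its signal ran from 8.66 to 10.37 over the 29 arrays, with a mean of 9.39, above 74.7% of the probe sets. Its SD over arrays was 0.47, larger than that of 90.4% of the probe sets, while its residual SD within the model was 0.14. Signal strength depends on the probe, so it does not rank Ache against other genes.

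In the PFC after MPTP, Ache read 9.40 and 9.13 in TgS mice, 9.21 and 9.28 in TgR mice, and 9.03 and 9.17 in FVB/N mice. The TgS values spanned those of TgR mice and overlapped those of FVB/N mice, and both TgR arrays lay above both FVB/N arrays. In naive PFC replicates 1 and 2, Ache read 9.11 and 9.04 in TgS mice, 9.17 and 9.35 in TgR mice, and 9.74 and 9.44 in FVB/N mice. In replicates 3 and 4, it read 8.73 and 8.80 in TgS mice, 8.66 and 8.83 in TgR mice, and 8.92 and 8.82 in FVB/N mice. Within each strain the first pair lay above the second with no overlap, and the averaged gap was 0.52 ± 0.08 (adjusted p = 3.02e-05; 53.7% of all probe sets were called between these sets).

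In the CPu after MPTP, Ache read 9.81 and 9.46 in TgS mice, 9.46 in the single TgR array, and 9.96 and 10.23 in FVB/N mice. In the naive CPu it read 10.22 and 10.37 in TgS mice, 9.83 and 9.77 in TgR mice, and 9.65 and 9.64 in FVB/N mice. Among naive mice the TgS pair was the highest and the FVB/N pair the lowest, whereas after MPTP the FVB/N pair was the highest. All 11 CPu arrays read at least 9.46. FVB/N naive PFC replicate 1 was the 1 PFC array above that level, and it exceeded 4 CPu arrays.

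**Figure D1:**
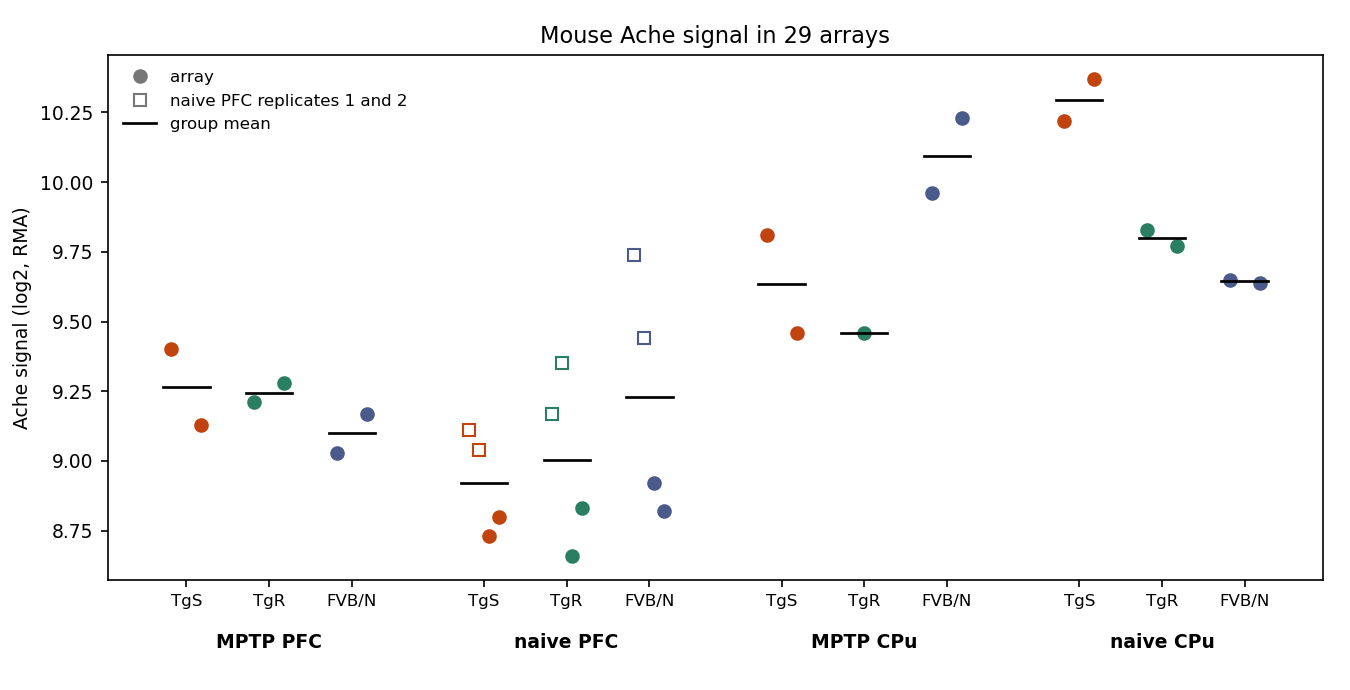
Ache signal (log2 RMA, vertical axis) in each of the 29 arrays, grouped on the horizontal axis by region, treatment and strain; points are arrays, open squares are naive PFC replicates 1 and 2, and black lines are group means. CPu arrays lie at 9.46 to 10.37 and PFC arrays at 8.66 to 9.74, and the open squares lie above the filled naive PFC points of the same strain.

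Ordered by mean, the groups ran from naive TgS CPu (10.30 ± 0.11, SD, n = 2) and MPTP FVB/N CPu (10.10 ± 0.19, n = 2) down to naive TgR PFC (9.003 ± 0.31, n = 4) and naive TgS PFC (8.92 ± 0.18, n = 4). The 6 CPu groups took the first 6 places. Naive FVB/N and MPTP TgS CPu, in the fourth and the fifth place, differed by 0.01, and the 6 PFC group means lay between 8.92 and 9.27 with gaps of at most 0.13 between neighbours. The spread within naive PFC groups, up to an SD of 0.44 in FVB/N mice, exceeds every gap between neighbouring PFC groups.

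Ache was lower in the PFC than in the CPu, in MPTP-exposed and in naive mice. After MPTP the 6 PFC arrays read 9.03 to 9.40 and the 5 CPu arrays 9.46 to 10.23, with no overlap. The strain-averaged difference was -0.53 ± 0.09 (1.44-fold lower in the PFC, adjusted p = 5.24e-05), in a comparison in which 43% of all probe sets were called. None of the 6 separate arrays enters this difference, which kept its value without them (adjusted p = 1.25e-05, with 53.9% called). An exact two-sided permutation test of the pooled means gave a difference of -0.58 and p = 0.00433, the smallest value its 462 arrangements allow (0.0130 after Benjamini-Hochberg adjustment over the 3 probe sets so tested). In naive mice the PFC values ran from 8.66 to 9.74 (median 8.98, n = 12) and the CPu values from 9.64 to 10.37 (median 9.80, n = 6). The difference was -0.61 ± 0.08 (1.52-fold lower, adjusted p = 2.73e-06, with 60.1% of probe sets called). Without the 6 arrays it was -1.12 ± 0.07 (2.17-fold lower, adjusted p = 7.19e-10, with 53.2% called), so its size depends on which naive PFC arrays are used and its direction does not. In these bulk samples, fewer cells of a type and less RNA per cell cannot be told apart. Marker lists moved with region too. After MPTP, all 6 measured cholinergic neuron markers were lower in the PFC (median -1.23), as were 9 of 10 striatal projection neuron markers (median -2.54), all 12 oligodendrocyte markers (median -1.37) and 7 of 9 choroid plexus and ependymal markers (median -0.995). Of 16 cortical markers, 13 were higher and 2 lower (median 1.37). The medians were smaller for astrocyte (-0.19), thalamic (-0.08), endothelial (0.13) and blood cell markers (-0.04). The cholinergic markers' summed linear signal was 308 to 351 in MPTP PFC arrays and 1741 to 2367 in MPTP CPu arrays. Their part in the Ache difference was not tested.

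In naive CPu, Ache was higher in TgS mice than in FVB/N mice. The values of 10.22 and 10.37 in TgS mice lay above 9.65 and 9.64 in FVB/N mice, a difference of 0.65 ± 0.14 (1.57-fold, adjusted p = 0.0145) where 2.19% of probe sets were called. Without the 6 PFC arrays the adjusted p was 0.00207, with 9.25% called. The call was lost with no set term (adjusted p = 0.435). It was also lost without FVB/N replicate 1 (0.149), without FVB/N replicate 2, whose labels conflict (difference 0.645, adjusted p = 0.0746), and without TgS replicate 2 (0.0978). In naive TgR CPu the values of 9.83 and 9.77 also lay above both FVB/N arrays, but the difference of 0.16 ± 0.14 was not called (adjusted p = 0.998, 95% interval -0.13 to 0.44, with no probe set called in that comparison and 1066 at an unadjusted p under 0.05 in limma).

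After MPTP the transgenic CPu arrays lay below the FVB/N arrays. The difference was -0.46 ± 0.14 in TgS mice (adjusted p = 0.162, 0.694% of probe sets called) and -0.64 ± 0.17 for the single TgR array, whose spread is assumed to equal that of the other groups (adjusted p = 0.0826, 1.04% called). Neither was called with all 29 arrays. Without the 6 PFC arrays, whose spread enters the shared error, both passed the threshold at unchanged values (adjusted p = 0.0361 in TgS mice with 4.04% of probe sets called, and 0.0195 for the single TgR array with 3.73%). The spread of the TgR group itself could not be measured, so its value describes 1 array.

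In naive PFC, Ache was lower in TgS than in FVB/N mice by -0.31 ± 0.10 (adjusted p = 0.0462, 10.9% of probe sets called), just past the threshold. With a replicate block, which gives each replicate number an effect shared by all groups, it was not called (adjusted p = 0.0677), nor was it with no set term (0.384). The gap was -0.52 ± 0.13 in replicates 1 and 2 alone (adjusted p = 0.00931, 23.4% called) and -0.11 ± 0.12 in replicates 3 and 4 (adjusted p = 0.639, 3.73% called). The call was lost when any 1 of 14 arrays was left out, and leaving out FVB/N replicate 1 moved it furthest (-0.22, adjusted p = 0.193). In naive TgR PFC the difference was -0.23 ± 0.10 (adjusted p = 0.157, 2.26% called). After MPTP the PFC differences were 0.17 ± 0.14 for TgS mice (95% interval -0.12 to 0.45, 0.362% called) and 0.15 ± 0.14 for TgR mice (95% interval -0.14 to 0.43, 0.212% called). Neither was called, and both intervals leave room for differences either way. In naive PFC, neither transgenic strain averaged above FVB/N mice.

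The TgS minus FVB/N difference itself differed between regions. In naive mice it was 0.96 ± 0.17 larger in the CPu than in the PFC (adjusted p = 0.0100, 1.02% of probe sets called), and 0.76 ± 0.17 without the 6 arrays (adjusted p = 0.0311, 1.94% called). The call was lost with no set term (adjusted p = 0.365), without naive FVB/N CPu replicate 1 (0.0906) and without naive TgS CPu replicate 2 (0.0672). The same contrast for TgR mice was 0.38 ± 0.17 (adjusted p = 0.410). No probe set was called there, and 2636 had an unadjusted p under 0.05 in limma.

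After MPTP, Ache fell in the CPu of TgS mice, and this response differed from that of FVB/N mice. In TgS mice Ache read 9.81 and 9.46 after MPTP against 10.22 and 10.37 in naive CPu, and the groups did not overlap. The difference was -0.66 ± 0.14 (1.58-fold lower after MPTP, adjusted p = 0.0155), with 1.41% of probe sets called, and without the 6 PFC arrays the adjusted p was 0.00473, with 3.78% called. In FVB/N mice it read 9.96 and 10.23 after MPTP against 9.65 and 9.64 in naive CPu, and the groups did not overlap. This difference, 0.45 ± 0.14, was not called (adjusted p = 0.294, 0.265% called; 0.102 and 0.676% without the 6 PFC arrays), nor was the TgR difference of -0.34 ± 0.17 (1 MPTP array, adjusted p = 1, 0.11% called). The test of the TgS against the FVB/N response gave -1.11 ± 0.20 (adjusted p = 0.00777) in a comparison with 0.601% of probe sets called, and an adjusted p of 0.00200 without the 6 PFC arrays, with 1.42% called. The TgS response lost its call with no set term (adjusted p = 0.477), without naive TgS replicate 1 (0.0570) or 2 (0.103), and without MPTP TgS replicate 2 (0.451). The test between strains lost it with no set term (adjusted p = 0.488), without MPTP FVB/N replicate 2 (0.0697) and without MPTP TgS replicate 2 (0.0773). Without naive FVB/N replicate 2, whose labels conflict, it was still called (adjusted p = 0.0239). Averaged over the 3 strains, the CPu difference was -0.18 ± 0.09 (adjusted p = 0.417, 1.43% called).

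In the PFC the sign of the MPTP difference depended on the naive arrays used in FVB/N and TgR mice and in the strain average. In TgS mice only the size of the MPTP difference did. With all arrays it was 0.09 ± 0.13 in TgS mice (adjusted p = 0.60, 40.6% of probe sets called), -0.02 ± 0.13 in TgR mice (adjusted p = 0.930, 43.7%) and -0.39 ± 0.13 in FVB/N mice (adjusted p = 0.0301, 25.5%). Without the 6 arrays it was 0.50 ± 0.12 in TgS mice (adjusted p = 0.00336, 37.1% called), 0.50 ± 0.12 in TgR mice (adjusted p = 0.00650, 22.5%) and 0.23 ± 0.12 in FVB/N mice (adjusted p = 0.184, 18.9%). The strain average was -0.11 ± 0.08 with all arrays (adjusted p = 0.258, 60.9% called) and 0.41 ± 0.07 without the 6 (adjusted p = 0.000107, 50.5% called). Against the CPu average, the PFC response differed by 0.08 ± 0.12 with all arrays (adjusted p = 0.60, 43.3% called) and by 0.59 ± 0.10 without the 6 (adjusted p = 0.000466, 32.5% called). The MPTP PFC arrays (9.03 to 9.40) fell within naive replicates 1 and 2 (9.04 to 9.74) apart from 1 array at 9.03, and above all of naive replicates 3 and 4 (8.66 to 8.92). The call in FVB/N mice was lost with no set term (-0.13, adjusted p = 0.811), without naive replicate 1 (0.123), and without MPTP replicate 1 (0.208) or 2 (0.0677). The TgS response in the PFC was not shown to differ from that of FVB/N mice with all arrays (0.48 ± 0.17, adjusted p = 0.301, no probe set called and 2815 at an unadjusted p under 0.05 in limma). It did in replicates 1 and 2 alone (0.68 ± 0.18, adjusted p = 0.0252, 10.9% called). For the TgR response the difference was 0.37 ± 0.17 (adjusted p = 0.597, 0.00442% called). With replicates 1 and 2 alone the FVB/N difference was -0.49 ± 0.13 (adjusted p = 0.0141, 22.8% called). Sex-linked transcripts separate replicates 1 and 2 from the MPTP arrays as well. The actin control difference overlapped, at -0.83 to -0.62 in MPTP PFC and -2.30 to -0.79 in naive replicates 1 and 2. For the Gapdh control the same difference did not overlap, at 0.03 to 0.09 in MPTP PFC and -0.66 to 0.01 in naive replicates 1 and 2. Array medians did not overlap either, at 7.76 to 7.78 and 7.61 to 7.70. The part of these transcripts, controls and medians in the Ache values was not tested.

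**Figure D2:**
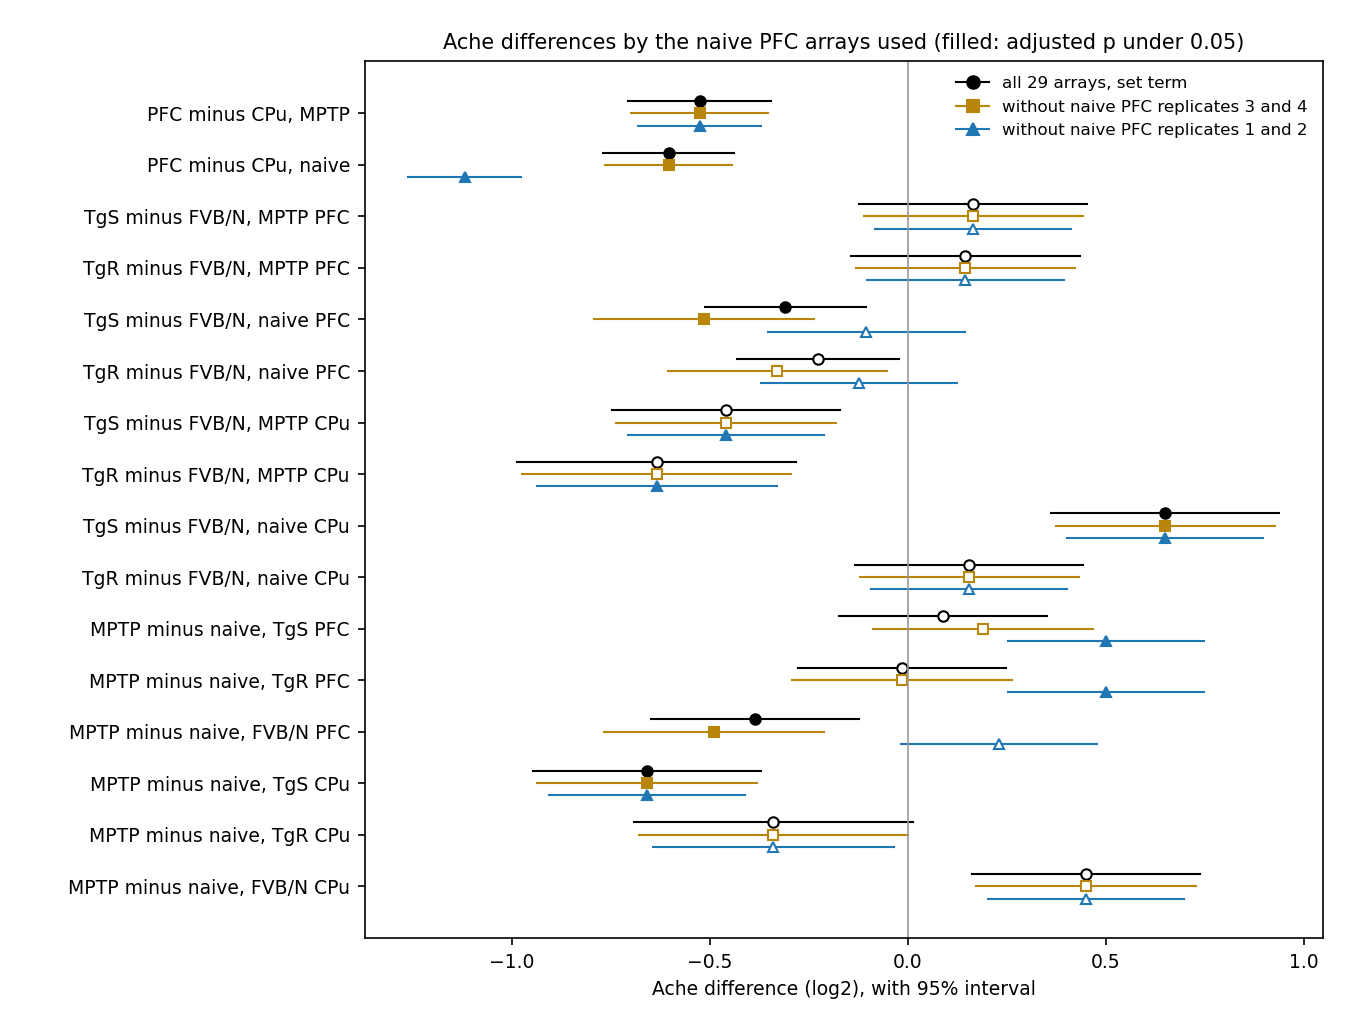
Ache differences (log2, horizontal axis) with 95% intervals for 16 comparisons (rows), from all 29 arrays with the set term (black circles), without naive PFC replicates 3 and 4 (yellow squares) and without naive PFC replicates 1 and 2 (blue triangles); filled symbols have an adjusted p under 0.05. Estimates within the CPu coincide, while the naive region difference runs from -0.61 to -1.12 and the MPTP difference in FVB/N PFC from -0.49 to 0.23.

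Several marker lists also differed in the 2 CPu comparisons of TgS mice in which Ache was called. In naive TgS against naive FVB/N CPu, where 2.19% of all probe sets were called, 8 of 16 measured cortical glutamatergic neuron markers were lower (median -0.64), 4 of 14 thalamic neuron markers were higher (median 0.42), 2 of 6 cholinergic neuron markers were higher (median 0.68) and none of 10 striatal projection neuron markers was called, against a median of -0.03 over all probe sets. No oligodendrocyte, astrocyte, endothelial, choroid plexus or blood cell marker was called in this comparison, with medians from -0.22 to 0.34. The vesicular acetylcholine transporter gene Slc18a3 rose by 0.66 ± 0.17 (adjusted p = 0.0451) and the neurotrophin receptor gene Ngfr by 0.77 ± 0.18 (adjusted p = 0.0308). The Slc18a3 call was lost in at least 18 of the 29 fits that left out 1 array. The glutamate transporter gene Slc17a6, a thalamic marker, rose by 1.47 ± 0.21. The cortical transcription factor gene Neurod6 fell, with a difference of -2.62 ± 0.39. In the TgS response to MPTP, where 1.41% of all probe sets were called, the signs were the opposite ones, with 6 cortical markers higher (median 0.40), 4 thalamic markers lower (median -0.37), and 1 cholinergic marker, Ngfr, lower (-0.79 ± 0.18, adjusted p = 0.0344). There 1 of 9 choroid plexus and ependymal markers was also lower (median -0.77), and 1 of 13 astrocyte markers was higher and 1 lower.

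The summed linear signal of the cortical markers was 13429 and 14620 in MPTP TgS CPu and 9992 and 9327 in naive TgS CPu, and 12281 and 11452 in MPTP FVB/N CPu and 15266 and 13343 in naive FVB/N CPu. The summed thalamic markers read 5036 and 4803 in MPTP TgS CPu and 7362 and 9694 in naive TgS CPu, and 5839 and 6746 in MPTP FVB/N CPu and 5473 and 4826 in naive FVB/N CPu. The summed cholinergic markers were 2089 and 1741 in MPTP TgS CPu and 2628 and 2644 in naive TgS CPu, and 2012 and 2367 in MPTP FVB/N CPu and 1767 and 2102 in naive FVB/N CPu. In the single MPTP TgR CPu array the cortical, thalamic and cholinergic sums were 14895, 2601 and 1784. In naive TgR CPu the cortical sums were 12254 and 12286, the thalamic sums 5379 and 4281, and the cholinergic sums 2376 and 2387. The thalamic sums of naive TgR CPu thus overlapped those of naive FVB/N CPu, although Ache was higher. Choroid plexus and ependymal sums were 2235 and 15631 in the 2 MPTP FVB/N CPu arrays. RMA returns no value of 0, so no marker is at 0. Naive TgS CPu, the group with the highest Ache, had the highest thalamic and cholinergic sums and the lowest cortical sum of the CPu groups. The actin control difference was -0.89 to -0.84 in MPTP TgS CPu and -0.92 to -0.67 in naive TgS CPu, and -1.22 to -1.18 in MPTP FVB/N CPu and -1.41 to -1.26 in naive FVB/N CPu. The part of these marker and control differences in the Ache values was not tested.

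**Figure D3:**
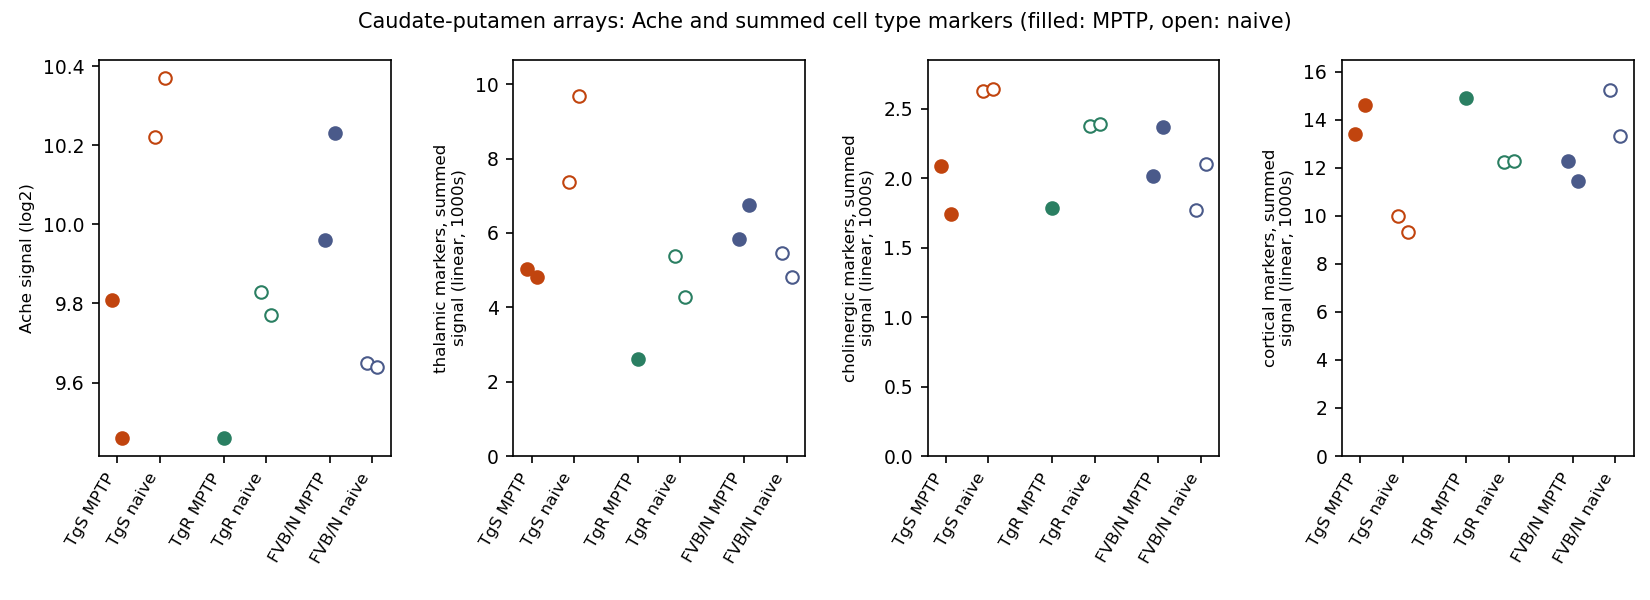
The 11 CPu arrays by strain, with MPTP (filled) left of naive (open): Ache signal (log2) and the summed linear signal, of 14 thalamic, 6 cholinergic and 16 cortical markers; each point is an array. Naive TgS arrays are at the top of the Ache, thalamic and cholinergic panels and at the bottom of the cortical panel.

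Bche gave a low and nearly level signal in all groups. The brighter probe set ran from 5.22 to 5.64 over the 29 arrays, and 16.5% of all probe sets had a lower mean. The second probe set ran from 3.61 to 4.01, with 1.51% of probe sets below it. The table holds no detection calls, so whether either lies above background was not tested. The arrays read 5.22 to 5.64 in the PFC (median 5.40, n = 18) and 5.33 to 5.49 in the CPu (median 5.40, n = 11). The group means of the brighter probe set spanned 0.18, from 5.49 ± 0.12 in naive TgR PFC (SD, n = 4) to 5.31 ± 0.02 in MPTP TgR PFC (n = 2). The largest gap between neighbouring groups in that order was 0.04, less than the residual SD of 0.09.

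In the main fit, Bche was called in none of the 24 comparisons that were tested, by either probe set, while Ache was called in 8. Of all probe sets, 0% to 60.9% were called in these comparisons, depending on the comparison. The comparisons share arrays, so the 8 Ache calls are not independent. At an unadjusted p under 0.05 in limma the counts were 3 and 2 for the Bche probe sets and 16 for Ache. For the brighter Bche probe set the differences ran from -0.25 to 0.14, and their 95% intervals stayed between -0.48 and 0.28. These limits hold for the array signal, and at a signal this low they set no bound on the change in Bche RNA. The regional difference of this probe set was -0.06 ± 0.06 after MPTP and 0.02 ± 0.05 in naive mice (-0.003 ± 0.05 without the 6 arrays). The exact permutation test of region after MPTP gave p = 0.320 (0.320 adjusted over 3 probe sets). The second probe set read -0.10 ± 0.05 after MPTP, with an exact permutation p = 0.0303 (0.0455 adjusted), and -0.07 ± 0.04 in naive mice. Without the 6 arrays its naive difference of -0.14 was called (adjusted p = 0.00873, with 53.2% of all probe sets called), so the probe sets did not give the same answer there. The MPTP difference in TgR PFC, with 5.32 and 5.29 after MPTP against 5.39, 5.64, 5.52 and 5.40 in naive PFC, was the nearest to a call (-0.20 ± 0.08, adjusted p = 0.0610). It passed the threshold when any 1 of 6 arrays was left out, with the lowest adjusted p of 0.0302 without naive TgR PFC replicate 1, and was -0.16 ± 0.08 without the 6 arrays (adjusted p = 0.204).

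**Figure D4:**
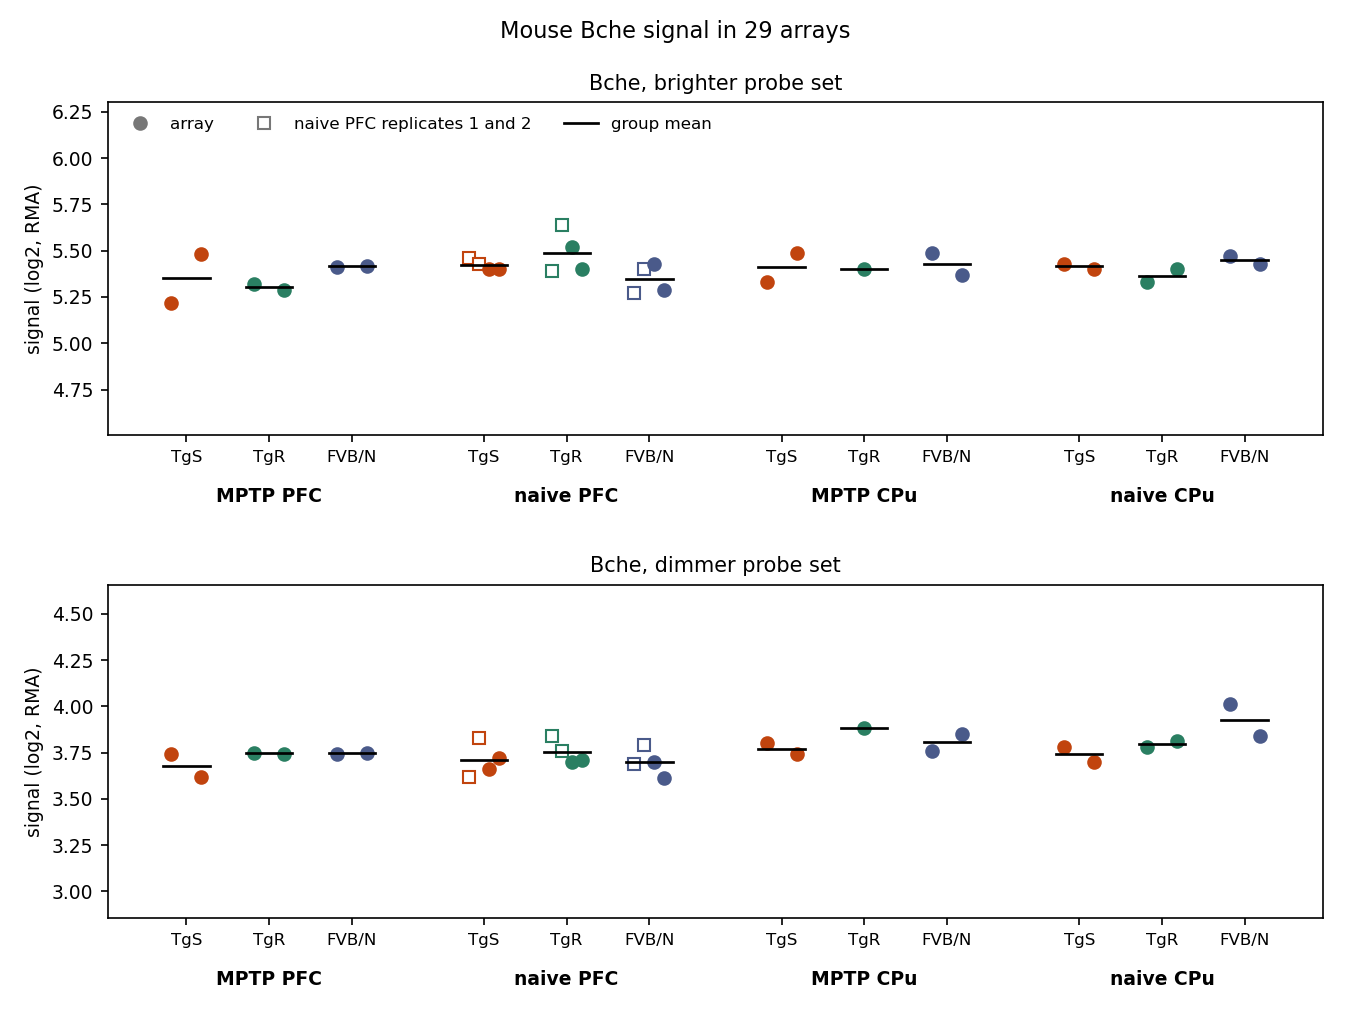
Bche signal (log2 RMA, vertical axes, each spanning 1.8 units) for the brighter (top) and the dimmer (bottom) probe set in each of the 29 arrays, grouped by region, treatment and strain; open squares are naive PFC replicates 1 and 2 and black lines are group means. The brighter probe set stays within 5.22 to 5.64 and the dimmer one within 3.61 to 4.01.

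Of the genes that handle acetylcholine and choline or anchor the enzyme, 11 of 13 listed were measured. In the PFC against the CPu after MPTP, 1 was higher and 6 were lower (median -0.16, against -0.02 over all probe sets), and in naive mice 3 were higher and 7 lower (median -0.51, against 0.06). These are 7 and 10 of 11 members, in comparisons that called 43% and 60.1% of all probe sets. Without the 6 arrays the naive counts were 1 higher and 7 lower, with 53.2% of probe sets called. Prima1, which encodes the membrane anchor of brain acetylcholinesterase, read 6.76 to 7.30 in the 18 PFC arrays and 7.66 to 8.22 in the 11 CPu arrays, with no overlap. It was lower in the PFC by -1.01 ± 0.08 after MPTP (adjusted p = 5.32e-09) and -0.60 ± 0.07 in naive mice (adjusted p = 1.32e-06; -0.71 ± 0.07 without the 6 arrays). Slc18a3, which loads acetylcholine into vesicles, was lower by -1.41 ± 0.10 after MPTP and -1.75 ± 0.10 in naive mice (-1.98 ± 0.07 without the 6 arrays). Slc5a7, the high-affinity choline transporter gene of cholinergic terminals, was lower by -1.04 ± 0.12 after MPTP and -1.06 ± 0.11 in naive mice (-0.98 ± 0.11 without the 6 arrays). In naive TgS CPu against FVB/N mice, where 2.19% of all probe sets were called, Slc18a3 was the 1 of 11 members that passed the test. When 1 array was left out at a time, no member passed in 18 of 29 fits and 2 passed in 2 fits. In that group Prima1 differed from FVB/N mice by 0.23 ± 0.13 (adjusted p = 0.464). In naive TgS PFC against FVB/N mice, 0 of 11 members were higher and 3 lower, where 10.9% of all probe sets were called. When 1 array was left out at a time, 3 members were called in 10 fits, 2 in 17 fits and 1 in 2 fits.

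Of 23 listed acetylcholine receptor genes and their helpers, 18 were measured. In the PFC against the CPu, 6 were higher and 1 lower after MPTP, and 7 were higher and 2 lower in naive mice (6 and 3 without the 6 arrays). With 7 and 9 of 18 members called, these shares are near or below the 43% and 60.1% of all probe sets. Chrna4, a nicotinic subunit gene, was higher by 0.63 ± 0.09 after MPTP and 0.66 ± 0.08 in naive mice (0.35 ± 0.06 without the 6 arrays), and Chrm4, the M4 muscarinic receptor gene, was lower by -0.89 ± 0.14 in naive mice (-0.55 ± 0.07 without the 6 arrays). In naive CPu, the nicotinic subunit gene Chrnb2 read 7.25 and 7.37 in TgS mice and 6.58 and 6.65 in FVB/N mice. It was the 1 receptor gene called there (0.70 ± 0.12, adjusted p = 0.00338), and 2 were called without the 6 arrays. These counts of 18 members stand beside 2.19% and 9.25% of all probe sets. Of 25 listed relatives that share the cholinesterase protein fold, 13 were measured. In naive mice 9 were higher and none lower in the PFC (median 0.20), 4 and 1 without the 6 arrays, and after MPTP 1 was higher and 2 lower. The called shares of 9, 5 and 3 of 13 members stand beside 60.1%, 53.2% and 43% of all probe sets. Nlgn2, the gene of a neuroligin found at inhibitory synapses, was higher in the PFC by 0.36 ± 0.07 after MPTP and 0.78 ± 0.07 in naive mice, but its naive difference was -0.08 ± 0.06 and not called without the 6 arrays (adjusted p = 0.315). In MPTP against naive PFC, averaged over strains, none of the relatives was higher and 7 were lower, and 1 was higher and 4 lower without the 6 arrays, where 60.9% and 50.5% of all probe sets were called. With all arrays, none of the relatives was called in a comparison of strains within a region and treatment, or of MPTP with naive mice in the CPu. Of all probe sets, 0% to 10.9% were called in the former and 0.11% to 1.43% in the latter. At such shares, no call among 13 members does not set this family apart.

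Over the 12 group means, the genes most like Ache by Pearson correlation were Gaa, the lysosomal acid glucosidase gene (0.97), Acly, the ATP citrate lyase gene (0.96), and Ufsp1, a UFM1-specific protease gene (0.96). Those most opposite were Prss12 (-0.97), Arap2 (-0.97) and Neurod6 (-0.96). These points share the 29 arrays and the difference between regions. With each region's mean removed, over 29 single arrays, the most alike were Alg2 (0.88), Gaa (0.85) and Itga3 (0.84). Over the 23 arrays without the separate 6, they were Alg2 (0.89), Prkaca (0.88) and Prmt2 (0.87), and the most opposite were the cortical neuron genes Tbr1 (-0.84) and Zbtb18 (-0.84). For Bche, the closest over group means was Crybb3, with 0.94 over the 12 means and 0.44 over the single arrays.

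Ufsp1 is also the nearest measured gene downstream of Ache in the RefSeq table. It was lower in the PFC than in the CPu by -0.61 ± 0.09 after MPTP (adjusted p = 2.75e-05) and -0.55 ± 0.09 in naive mice (adjusted p = 2.81e-05; -0.84 ± 0.06 without the 6 arrays). Its naive CPu level was 8.64 and 8.68 in TgS mice and 8.19 and 8.36 in FVB/N mice, a difference that was not called (0.39 ± 0.15, adjusted p = 0.239). Srrt, the next measured gene, was lower in the PFC by -0.31 ± 0.07 after MPTP and -0.52 ± 0.07 in naive mice (-0.78 ± 0.06 without the 6 arrays). Trip6 beyond it was called in neither with all arrays, and was lower in naive PFC without the 6 (-0.54 ± 0.07, adjusted p = 1.28e-05). Upstream, Ap1s1 was lower after MPTP (-0.48 ± 0.07) and, without the 6 arrays, in naive mice (-0.40 ± 0.06). Muc3 was higher in naive mice with all arrays (0.27 ± 0.08) and not called without the 6 (-0.07 ± 0.05). Plod3 was called in neither comparison with all arrays, and its naive difference without the 6 was -0.16 ± 0.05 (adjusted p = 0.00825). In naive TgS against FVB/N PFC, Srrt (-0.51 ± 0.08, adjusted p = 0.00147) and Plod3 (-0.185 ± 0.05, adjusted p = 0.0329) were lower. There 10.9% of all probe sets were called. Ufsp1 and Trip6 were lower, and Ap1s1 and Muc3 higher, without a call. Near Bche, Serpini1, which encodes neuroserpin, was higher in the PFC by 1.07 ± 0.07 after MPTP and 1.21 ± 0.07 in naive mice (1.21 ± 0.05 without the 6 arrays). Serpini2, the nearest measured gene on that side, was called in neither, with or without the 6. B3galnt1 was higher in both (0.32 ± 0.06 and 0.455 ± 0.05). Nmd3 was lower after MPTP (-0.20 ± 0.07) and higher in naive mice (0.27 ± 0.06). Pdcd10 (-0.27 ± 0.09) and Sptssb (0.17 ± 0.07) were called in naive mice only, and not without the 6 arrays. These region comparisons called 43% of all probe sets after MPTP and 60.1% in naive mice (53.2% without the 6 arrays).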

How the data were processed

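RNA from 29 tissue samples was hybridised to Affymetrix arrays. The deposited values are log2 signals per probe set, made by the authors with RMA in Affymetrix Power Tools and Expression Console, per the submitters' processing notes. No version is stated there, nor whether all arrays were summarised together, and no further normalization was applied for the main results. Of 22690 probe sets, 64 controls were left out, and 20380 of the others carry a single gene symbol. limma 3.58.1 in R 4.3.3 fitted 12 group means and a term for naive PFC replicates 3 and 4 (16 residual degrees of freedom), with two-sided moderated tests. Groups with few arrays are assumed to vary like the others, and the number of arrays limits the precision. The fit was tested on simulated data. A gene with several probe sets is represented by the brightest. List genes named are among the 5 members with the smallest p in a comparison, likeness genes among the 5 highest and 5 lowest, and neighbours the 3 nearest on each side. Summed markers are sums of 2 raised to the log2 signal. The members, lists and alternatives were chosen with earlier results of these data known, and the contrast of naive PFC replicates was added after seeing the values. Alternatives were no set term, a replicate block, either pair of naive PFC replicates left out, each region alone, quantile normalization, a filter on dim probe sets, a trended robust variance, the mean of a gene's probe sets and leaving out each array. Deviations from group means of arrays with the same replicate number correlated at 0.19 to 0.61 in all 12 naive PFC pairs, -0.16 to -0.08 in MPTP PFC and -0.35 to 0.15 in naive CPu. Differently numbered naive PFC pairs ran from -0.62 to 0.68, the highest within replicates 3 and 4. These naive PFC values include the difference between replicates 1 and 2 and replicates 3 and 4. Whether the numbers pair arrays beyond that was not tested. The replicate block replaced the set term with a term per replicate number, shared by all 12 groups, MPTP PFC and naive CPu included.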

Additional observations from a re-analysis of the deposited data

Results flagged for a closer look

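The Ache difference between TgS and FVB/N mice was tested between regions and differed, by 0.96 on the log2 scale, being 0.65 in naive CPu and -0.31 in naive PFC. The Ache response to MPTP in the CPu was tested between strains and also differed, by -1.11 for TgS against FVB/N mice, being -0.66 in TgS mice and 0.45 in FVB/N mice. Both tests use the same 4 naive CPu arrays and are therefore not independent. No Ache or Bche value stood out from the other arrays of a group of 4.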

How the results depend on the processing

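Without naive PFC replicates 1 and 2, the Ache difference in TgS against FVB/N naive PFC shrank to -0.105, the differences in MPTP CPu of -0.46 (TgS) and -0.635 (TgR) and the MPTP difference of 0.50 in TgS PFC were called, and the MPTP differences in FVB/N PFC (0.23), TgR PFC (0.50) and the PFC average (0.41) changed sign. The difference of the MPTP response between regions was called at 0.593. With no set term the estimates of -0.31 (TgS naive PFC), 0.65 (TgS naive CPu), -0.66 (MPTP in TgS CPu), -0.13 (MPTP in FVB/N PFC), 0.96 (TgS between regions) and -1.11 (MPTP between strains) were no longer called, and MPTP in TgR PFC (0.2425) and the PFC average (0.1525) changed sign. The replicate block gave -0.31 for TgS naive PFC without a call (adjusted p = 0.0677) and ended no other Ache call, leaving 7 of 24. Fitting each region alone (-0.31) and quantile normalization (-0.278) lost the same call. Replicates 1 and 2 alone gave a call at 0.68 for the MPTP response of TgS against FVB/N PFC. The count of Ache calls was 12 without the 6 arrays, 2 with no set term and 4 of 19 with each region alone. For the brighter Bche probe set, all uncalled, signs changed for the naive region difference without the 6 arrays (-0.00333), with quantile normalization (-0.0433) and with the mean of both probe sets (-0.0217). Quantile normalization also turned TgS naive CPu (0.00474), TgS MPTP CPu (0.0205), TgR MPTP CPu (0.0177), MPTP in TgS PFC (0.00898), the MPTP average in the CPu (-0.0199) and PFC (0.0133), its difference between regions (0.0332) and the naive PFC set difference (-0.0346). The mean of both probe sets turned TgR MPTP CPu (0.0225) and MPTP in TgS CPu (0.0125). The second Bche probe set was called in 1 of 24 comparisons without the 6 arrays and in 1 of 24 with quantile normalization.

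Leaving out 1 array at a time gave these Ache ranges where a call or a sign changed: -0.367 to -0.215 for TgS naive PFC, 0.575 to 0.725 for TgS naive CPu, -0.77 to -0.50 for TgR MPTP CPu, -0.835 to -0.485 for MPTP in TgS CPu, -0.4575 to -0.261 in FVB/N PFC, -0.0475 to 0.2225 in TgS PFC, -0.06 to 0.03 in TgR PFC, 0.865 to 1.035 for TgS between regions and -1.285 to -0.935 for MPTP between strains in the CPu. For Bche the ranges were -0.25 to -0.125 for MPTP in TgR PFC, -0.215 to 0.045 in TgS PFC, -0.085 to 0.075 in TgS CPu, -0.08 to 0.04 in FVB/N CPu, -0.0233 to 0.03 for the CPu average, -0.0133 to 0.0492 for the naive region difference, -0.09 to 0.03 for TgR MPTP CPu, -0.10 to 0.06 for TgS MPTP CPu, -0.195 to 0.065 for TgS MPTP PFC, -0.065 to 0.095 for MPTP between strains in the CPu and -0.01 to 0.0525 for the naive PFC sets. The cause of these changes was not tested. With 1 to 4 arrays in a group, small differences cannot be resolved, and the brighter Bche probe set could not be tested under the filter on dim probe sets, which leaves it out.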
